A study of Homo sapiens with 8 samples.

Results

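Krüppel-like factors (KLFs) are transcription factors that bind GC-rich and CACCC DNA elements through zinc fingers at the C terminus. The family divides by what lies outside the fingers. KLF2, KLF4, KLF5 and KLF6 carry activating domains, KLF9, KLF10 and KLF11 recruit the Sin3 corepressor, and KLF3 and KLF12 recruit the CtBP corepressor. KLF4 is known in epithelia as a factor of growth arrest and differentiation. The 9 genes described here, KLF2, KLF3, KLF4, KLF5, KLF6, KLF9, KLF10, KLF11 and KLF12, were taken as every probe set whose annotation for this Affymetrix array gives one of these symbols, which found 18 of the 22283 probe sets on the array. They are 9 of 11963 genes that have a probe set with 1 symbol. KLF4 was picked because it was higher with rosiglitazone on these same arrays. The other genes were listed beside it with earlier results of these data known. Its rosiglitazone differences are therefore a description and carry no test. The array holds 5 further KLF genes that were not on this list, KLF1, KLF7, KLF8, KLF13 and KLF15, and their values are given for comparison.

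The 8 samples came from an unnamed human line of lung adenocarcinoma, a non-small cell lung cancer. Groups of 2 arrays each received control treatment, rosiglitazone at 1 µM, carboplatin at 10 µM, or the combination, whose doses the labels do not restate, for 24 h. Rosiglitazone is a ligand of PPARγ, a nuclear receptor that switches on lipid metabolism genes, and carboplatin crosslinks DNA. Before treatment the cells were kept overnight in medium with serum. No label tells if replicate arrays are separate cultures, so p-values reflect array-to-array spread that may be technical. With so few arrays, precision is low throughout.

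Values are quantile normalized log2(signal + 16), so a difference of 1 is a doubling for bright probe sets and understates the change of dim ones. Errors are the standard error (SE) of limma with n = 2 arrays per group, and a probe set was called at an adjusted p below 0.05 over all 13338 tested. Array medians before scaling ran from 36.2 to 54.3. Correlations were 0.974 to 0.976 within groups and 0.964 to 0.984 between them, so the arrays of a group were no more alike than some arrays of different groups. Of 6 epithelial markers 5 were above the filter on dim probe sets, among them KRT8, KRT18, KRT7 and CDH1, and EPCAM was not. Of 3 lung adenocarcinoma markers on the array SFTPB and SFTPC were above it, and the lung lineage factor NKX2-1 was below. SFTPB and SFTPC were at percentiles 52 and 51.8 of mean level, CDH1 at 65.9, and KRT8, KRT7 and KRT18 at 98.1 to 99.3. No endothelial marker (of 4) and no leukocyte marker (of 3 on the array) was above the filter. Of 5 fibroblast markers 2 were, COL1A1 and DCN (percentiles 71.1 and 52). Passing the filter is not a call of expression.

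The promoters of KLF4 and KLF2 are shown because these genes had the largest differences of opposite direction with rosiglitazone. Each window holds the 250 bases before the RefSeq start site of GRCh38.p14, 5′ to 3′ on the gene's strand. KLF4 lies at chr9:107489770-107490019 (minus strand) and KLF2 at chr19:16324576-16324825 (plus strand). Capitals mark the GC box GGGCGG or its reverse complement CCGCCC, an element that KLF and Sp proteins are known to bind.
KLF4: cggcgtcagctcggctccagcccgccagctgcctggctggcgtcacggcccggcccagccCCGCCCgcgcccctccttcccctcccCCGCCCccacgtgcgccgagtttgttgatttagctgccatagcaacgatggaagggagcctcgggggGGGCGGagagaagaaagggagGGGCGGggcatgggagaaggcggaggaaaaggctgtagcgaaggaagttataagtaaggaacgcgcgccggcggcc
KLF2: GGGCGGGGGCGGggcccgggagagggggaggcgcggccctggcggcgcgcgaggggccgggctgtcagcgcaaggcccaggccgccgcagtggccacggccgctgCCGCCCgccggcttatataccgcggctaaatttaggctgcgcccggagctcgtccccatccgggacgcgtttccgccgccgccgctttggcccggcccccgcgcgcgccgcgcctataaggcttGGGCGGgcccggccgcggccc
Each window held 4 GC boxes, lying between 76 and 190 bases upstream in KLF4 and between 21 and 250 bases upstream in KLF2. At least 4 were found in 7.63% of all 35116 promoter windows of this length, and at least 1 in 42.6%. GC content was 69.2% in KLF4 and 80.0% in KLF2, against a median of 58.0%. Neither window held CACCC on either strand, a motif present in 54.7% of windows. Nor did either hold the nuclear receptor recognition site AGGTCA, present in 12.1%, or its direct repeat spaced by 1 base, present in 0.0171%. No match says only that these letters are not in this window. Of the 7 member genes with windows read here, 6 had the GC box in at least 1 of their windows, 3 had CACCC and none had AGGTCA.

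KLF4 was higher on every array with rosiglitazone than on every array without it, in both of its probe sets. Such a separation held for 3.20% of all probe sets, and KLF4 was chosen for its rise. In deposited signal the brighter probe set, 221841_s_at, was 40.8 and 42.5 on the control arrays, 138 and 166 on the rosiglitazone arrays, 26.2 and 30.6 on the carboplatin arrays, and 80.2 and 122 on the combination arrays. After normalization these were log2 values of 5.78 and 6.10 on the control arrays, 7.26 and 7.17 on the rosiglitazone arrays, 5.53 and 5.55 on the carboplatin arrays, and 6.84 and 6.84 on the combination arrays. The order of the group means was thus rosiglitazone, combination, control and carboplatin, and no 2 neighbouring groups overlapped. The log2 difference of rosiglitazone from control was 1.27 ± 0.20 (2.42-fold). That of the combination from carboplatin, on the other 4 arrays, was 1.30 ± 0.20 (2.46-fold). The combination differed from control by 0.90 ± 0.20. In these bulk samples more cells with KLF4 RNA and more KLF4 RNA per cell cannot be told apart.

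The other KLF4 probe set, 220266_s_at, gave smaller differences in the same direction. Its deposited signal was 36.1 and 21.0 on the control arrays, 90.6 and 72.5 on the rosiglitazone arrays, 43.1 and 33.0 on the carboplatin arrays, and 54.4 and 75.0 on the combination arrays. On the log2 scale rosiglitazone differed from control by 0.95 ± 0.26 and the combination from carboplatin by 0.47 ± 0.26. The lowest array with rosiglitazone was at 6.20 and the highest without it at 6.07, so the arrays did not overlap but came close. Over the 8 arrays the 2 probe sets correlated at 0.75, and both carry the mark of probes that can match several transcripts. The other tested member probe sets, KLF10 and KLF2 among them, carry it too, except KLF6 211610_at and KLF11 218486_at. Over the 4 arrays with rosiglitazone and the 4 without, the difference was 1.29 ± 0.14 for the brighter KLF4 probe set and 0.71 ± 0.18 for the other. A pseudocount of 64 in place of 16 lowered these to 0.81 and 0.41.

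**Figure D1:**
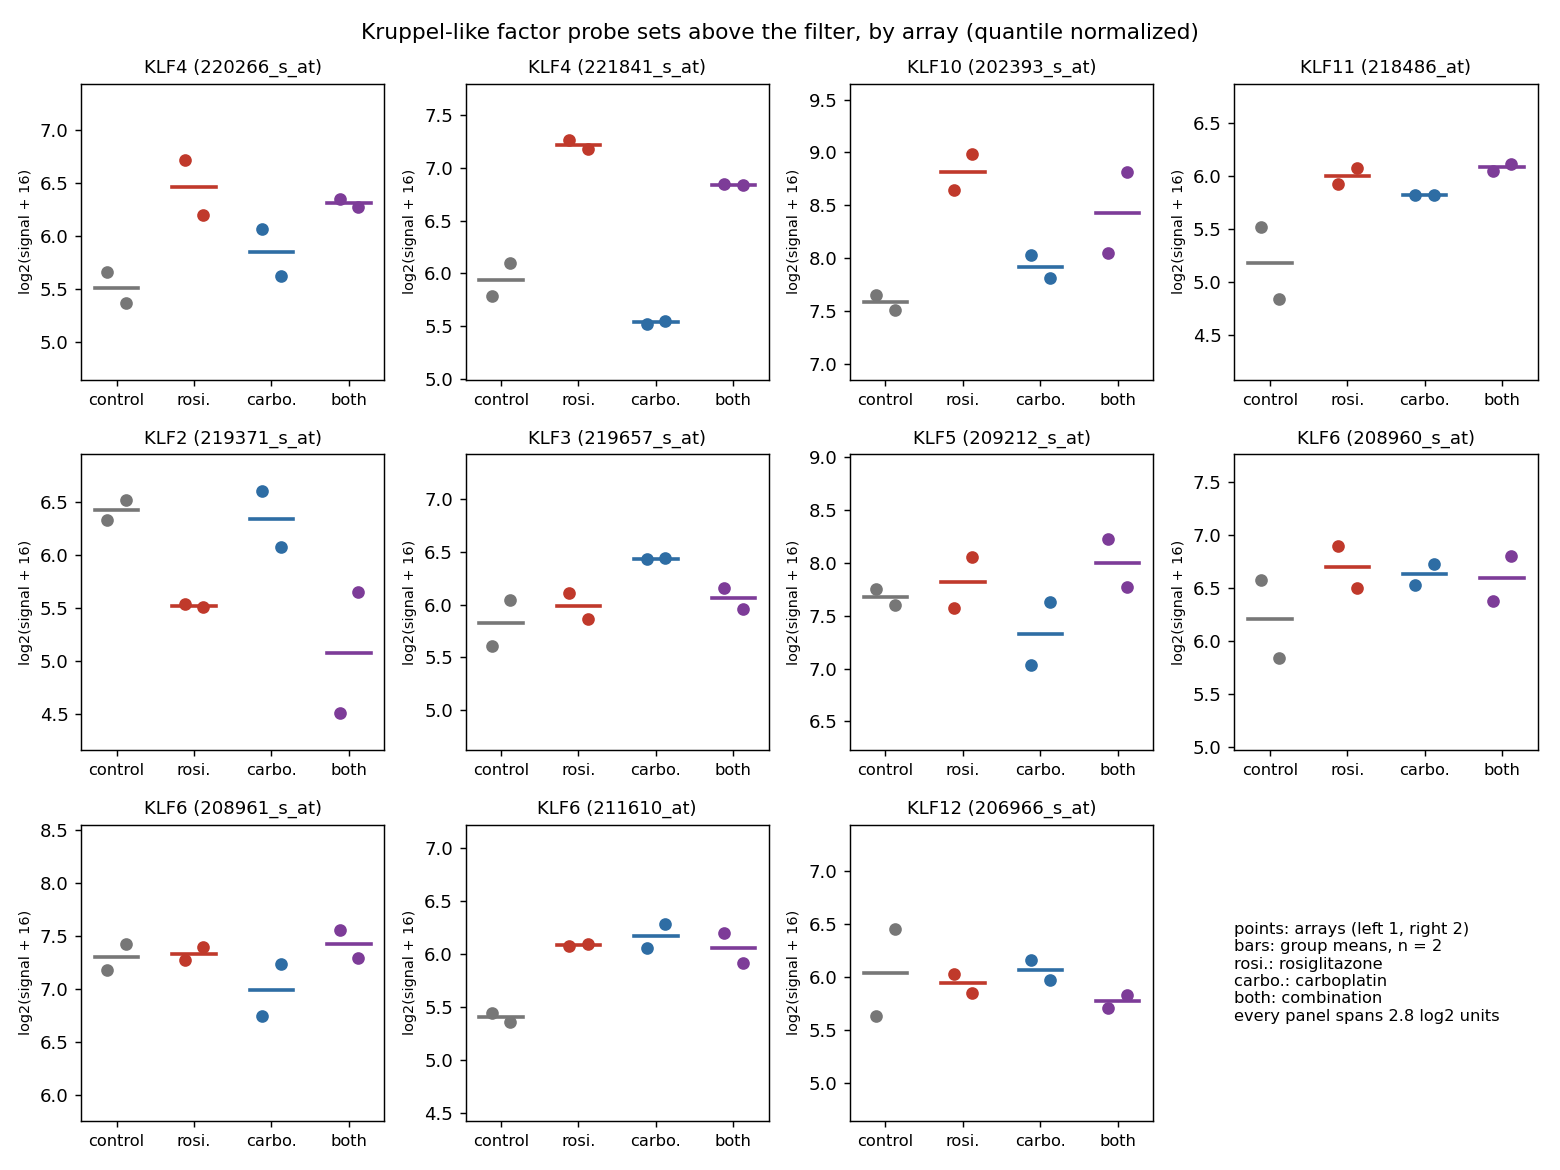
Quantile normalized log2(signal + 16) of the 11 Krüppel-like factor probe sets above the filter, by treatment, with points for arrays and bars for means of n = 2. Both KLF4 panels show the 4 arrays with rosiglitazone above the 4 without, and the KLF2 panel shows them below, with the lowest point at 4.51 on combination 1.

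Carboplatin contrasts did not choose KLF4, but they share arrays with rosiglitazone contrasts that did. Carboplatin against control shares the control arrays, and the combination against rosiglitazone shares the rosiglitazone arrays. In the brighter probe set the log2 difference was -0.40 ± 0.20 for carboplatin against control (adjusted p = 0.927, limma) and -0.38 ± 0.20 for the combination against rosiglitazone (adjusted p = 1.000). Both carboplatin arrays lay below both control arrays, and both combination arrays below both rosiglitazone arrays. Across 4 arrays with carboplatin and 4 without, the difference was -0.39 (95% interval -0.70 to -0.08), and it was not called (adjusted p = 0.997, limma). The other probe set differed in sign between the contrasts, at 0.33 ± 0.26 for carboplatin against control and -0.15 ± 0.26 for the combination against rosiglitazone. Whether carboplatin altered the rosiglitazone difference was asked with the interaction term. For KLF4 this term contains the differences on which the gene was chosen, so its p-values are no independent test. The term was 0.02 for the brighter probe set (95% interval -0.59 to 0.64) and -0.48 for the other (-1.28 to 0.32). Neither was called (adjusted p = 0.995 and 0.886, limma).

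KLF2, a factor of endothelial and T cell quiescence, was measured by 1 probe set and lay in the opposite direction. Its deposited signal was 68.3 and 61.3 on the control arrays, 32.7 and 36.1 on the rosiglitazone arrays, 66.9 and 52.7 on the carboplatin arrays, and 6.10 and 39.6 on the combination arrays. Every array with rosiglitazone was below every array without it, both as deposited and after normalization, where the log2 values were 4.51 to 5.65 against 6.08 to 6.60. The log2 difference between the 4 arrays with rosiglitazone and the 4 without was -1.08 ± 0.24 (0.472-fold), which was not called (adjusted p = 0.0825, limma). Rosiglitazone differed from control by -0.90 ± 0.35 (adjusted p = 0.405) and the combination from carboplatin by -1.26 ± 0.35 (adjusted p = 0.353). Combination 1 was far below the other 3 arrays with rosiglitazone, at 4.51 against 5.51 to 5.65. Without that array the 4 against 4 difference became -0.81 (adjusted p = 0.158, limma). Without combination 2 it was -1.35 (adjusted p = 0.0153), and with the deposited scaling -0.89 (adjusted p = 0.0466), so KLF2 was called under those alternatives. Carboplatin differed from control by -0.09 ± 0.35.

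KLF5 and KLF6 are also activators, KLF5 promoting proliferation of epithelial cells and KLF6 acting on growth-restraining genes. The bright KLF5 probe set, 209212_s_at, was at log2 values of 7.75 and 7.60 on the control arrays, 7.57 and 8.06 on the rosiglitazone arrays, 7.03 and 7.63 on the carboplatin arrays, and 8.22 and 7.77 on the combination arrays. Carboplatin 1 was its lowest array and combination 1 its highest. The combination exceeded carboplatin by 0.67 ± 0.24 (adjusted p = 0.626, limma) with no overlap of arrays, while rosiglitazone and control overlapped, with a difference of 0.14 ± 0.24. The other KLF5 probe set was below the filter, with signals from 7.24 to 26.0.

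The 3 KLF6 probe sets gave unlike values. In 211610_at the log2 values were 5.44 and 5.36 on the control arrays, 6.08 and 6.09 on the rosiglitazone arrays, 6.05 and 6.28 on the carboplatin arrays, and 6.20 and 5.92 on the combination arrays. Both control arrays were therefore below all 6 treated arrays. The share of all probe sets with such a separation was not computed, so how unusual it is cannot be told. The differences from control were 0.68 ± 0.22 with rosiglitazone, 0.77 ± 0.22 with carboplatin and 0.66 ± 0.22 with the combination, and none was called (adjusted p = 0.302, 0.879 and 0.421, limma). Its interaction term was -0.80 (95% interval -1.49 to -0.10, adjusted p = 0.821). The combination arrays lay within or near the range of the arrays with 1 drug. In 208960_s_at the 3 differences from control were 0.49 ± 0.27, 0.42 ± 0.27 and 0.39 ± 0.27, with overlapping arrays. In 208961_s_at, the brightest, they were 0.03 ± 0.20, -0.31 ± 0.20 and 0.13 ± 0.20. Over the 8 arrays 211610_at correlated at -0.04 with 208961_s_at and at 0.57 with 208960_s_at. Which KLF6 transcripts each probe set reads was not analysed here.

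KLF10 and KLF11 belong to the Sin3-binding repressors, and KLF10 was first known as a gene induced by TGF-β. KLF10 was the 1 called gene among the members tested for rosiglitazone. Its deposited signal was 204 and 136 on the control arrays, 376 and 640 on the rosiglitazone arrays, 196 and 217 on the carboplatin arrays, and 203 and 550 on the combination arrays. Combination 1 was thus no brighter than control 1 as deposited. After normalization the 4 arrays with rosiglitazone (8.05 to 8.99) stood above the 4 without (7.51 to 8.03), combination 1 by a narrow margin. KLF10 rose by 0.87 ± 0.16 in the 4 arrays with rosiglitazone against the 4 without (1.83-fold, adjusted p = 0.0291, limma).

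For KLF10, rosiglitazone differed from control by 1.23 ± 0.23 (2.35-fold, adjusted p = 0.0524, limma) and the combination from carboplatin by 0.51 ± 0.23 (adjusted p = 0.771). The interaction of KLF10 was -0.72 (95% interval -1.43 to -0.01) and was not called (adjusted p = 0.821). These values moved with single combination arrays. Without combination 1 the difference from carboplatin was 0.89 and the interaction -0.34, and without combination 2 they were 0.13 and -1.10. The 4 against 4 call of KLF10 was lost without control 1 (adjusted p = 0.0843), control 2 (0.127), rosiglitazone 2 (0.111), carboplatin 1 (0.0665), carboplatin 2 (0.112) or combination 2 (0.0570), with differences of 0.68 to 0.93. It was also lost when array brightness, the median log2 signal, entered as a covariate, where the difference was 0.67 (adjusted p = 0.0958). Rosiglitazone 2 and combination 2, the brightest arrays of the series, were also the highest in KLF10, and the part of brightness in the result was not tested beyond that covariate. Against control alone KLF10 passed without combination 1 (adjusted p = 0.0228) and without combination 2 (adjusted p = 0.0221).

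KLF11 was lowest in control. Its deposited signal was 31.1 and 11.04 on the control arrays, 47.5 and 64.5 on the rosiglitazone arrays, 35.0 and 40.6 on the carboplatin arrays, and 42.7 and 64.6 on the combination arrays. Control 2 was the lowest array, and all 6 treated arrays were above both controls, a separation whose share over all probe sets was not computed. On the log2 scale the 4 arrays with rosiglitazone were higher than the 4 without by 0.55 ± 0.19 (adjusted p = 0.318, limma), without overlap, from 5.93 to 6.11 against 4.84 to 5.82. The difference from control was 0.83 ± 0.27 with rosiglitazone, 0.64 ± 0.27 with carboplatin and 0.91 ± 0.27 with the combination, and none was called (adjusted p = 0.297, 0.927 and 0.318). Without control 2 the 4 against 4 difference was 0.38 (adjusted p = 0.586). KLF9, a hormone-responsive member of the same group, was not in the fit reported here, as its 3 probe sets were below the filter. With the filter omitted it entered the fit and was not called in any of the 8 contrasts. Its brightest, 203541_s_at, had signals of 24.6 and 28.4 on the control arrays, 39.1 and 23.9 on the rosiglitazone arrays, 35.2 and 27.8 on the carboplatin arrays, and 6.11 and 27.2 on the combination arrays. No treatment stood apart from the others in that probe set.

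The CtBP-binding repressors KLF3 and KLF12 did not follow KLF4. KLF3 was at log2 values of 5.61 and 6.04 on the control arrays, 6.11 and 5.86 on the rosiglitazone arrays, 6.43 and 6.44 on the carboplatin arrays, and 6.16 and 5.95 on the combination arrays. Carboplatin alone was thus its highest group. It differed from control by 0.61 ± 0.23 (adjusted p = 0.927, limma), while the 4 arrays with rosiglitazone differed from the 4 without by -0.11 ± 0.16 (adjusted p = 0.894). Of 4 KLF12 probe sets 1 was tested, and control 2 was its highest array at 6.45 and control 1 its lowest at 5.63. Its 4 against 4 rosiglitazone difference was -0.20 ± 0.20 (adjusted p = 0.819). The other 3 KLF12 probe sets had signals between 0.595 and 41.8.

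**Figure D2:**
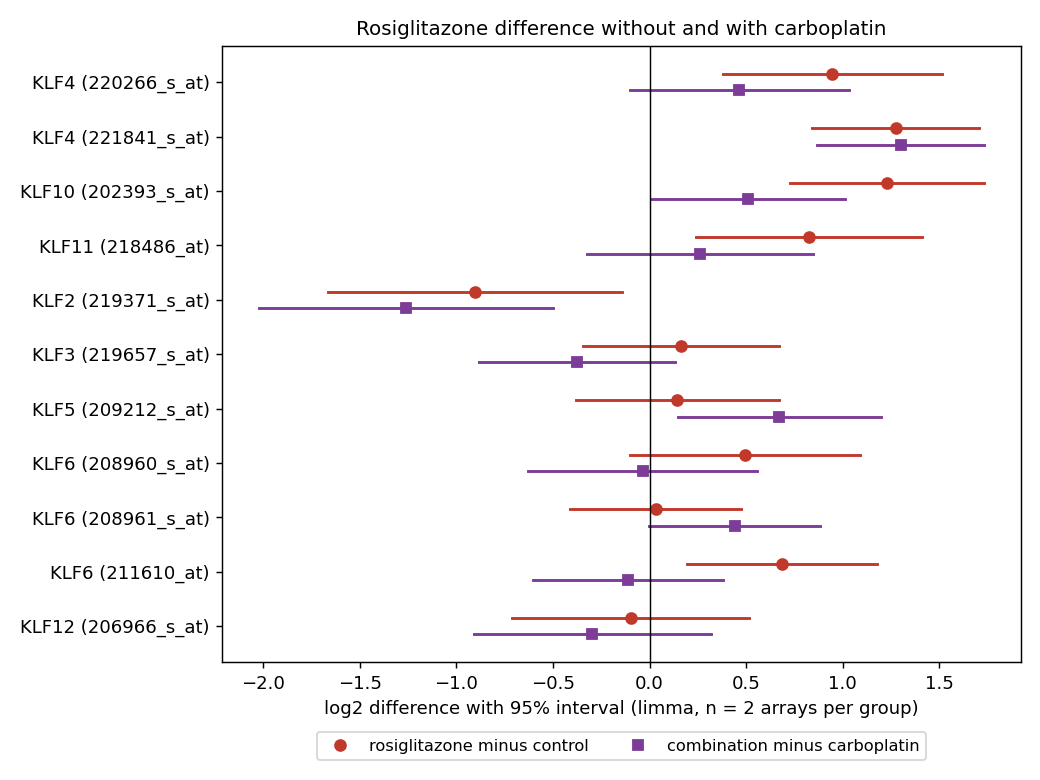
Log2 differences with 95% limma intervals for rosiglitazone minus control (circles) and combination minus carboplatin (squares), from separate arrays, for the 11 tested probe sets. KLF4 221841_s_at is at 1.27 and 1.30, KLF2 at -0.90 and -1.26, and KLF10 at 1.23 and 0.51; KLF4 was chosen on these contrasts.

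Of the 18 probe sets 11 passed the filter, covering 8 of the 9 genes, and a filter on mean level favours probe sets that are high in some group. Leaving out KLF4, 1 of 9 tested probe sets was called in the 4 against 4 rosiglitazone contrast. There 0.885% of all probe sets were called, 0.667% as higher and 0.217% as lower. In the same contrast 2 of the 9 (KLF10 and KLF11) had all 4 arrays with rosiglitazone higher, against 3.20% of all probe sets, and 1 (KLF2) had all 4 lower, against 2.95%. The median difference of the 9 was 0.24, against -0.01 for all probe sets. At an unadjusted p under 0.05 there were 4 of the 9, against 9.96% of all. For rosiglitazone against control 0 of 9 was called by limma (0.360% of all probe sets), with 4 of 9 at an unadjusted p under 0.05 (10.4% of all). For the combination against carboplatin 0 of 9 was called (0.157% of all), with 3 of 9 at an unadjusted p under 0.05 (6.43% of all). For the combination against control 0 of 9 was called (0.225% of all), with 4 at an unadjusted p under 0.05 (8.42% of all). These contrasts share arrays with each other. The members were chosen with earlier results of these data known, and several of the 9 probe sets read KLF6. The shares are therefore a description and not a test of the family.

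In contrasts of 2 against 2 arrays, non-overlap was common over all probe sets. For rosiglitazone against control it held for 19.8% as higher and 22.2% as lower, for the combination against carboplatin for 17.2% and 17.1%, and for the combination against control for 17.3% and 19.5%. For carboplatin against control it held for 16.2% and 18.9%, and for the combination against rosiglitazone for 16% and 15.1%.

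With carboplatin no Krüppel-like factor was called. For carboplatin against control 0 of 11 probe sets passed in limma (0.0150% of all), with 3 at an unadjusted p under 0.05 (5.17% of all). Those were KLF3, KLF11 and KLF6 211610_at, all higher. For the combination against rosiglitazone 0 of 11 passed (0.0225% of all) and none had an unadjusted p under 0.05. Across 4 arrays with carboplatin and 4 without 0 of 11 passed (0.0300% of all), with 2 at an unadjusted p under 0.05 (4.02% of all), KLF4 221841_s_at (-0.39 ± 0.14) and KLF6 211610_at (0.37 ± 0.16). None of the 11 had all 4 arrays with carboplatin higher or all lower than the rest, as 1.20% and 1.16% of all probe sets had. For the interaction 0 of 11 passed, with 2 at an unadjusted p under 0.05 (5.97% of all), and no probe set of the series passed (0%).

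**Figure D3:**
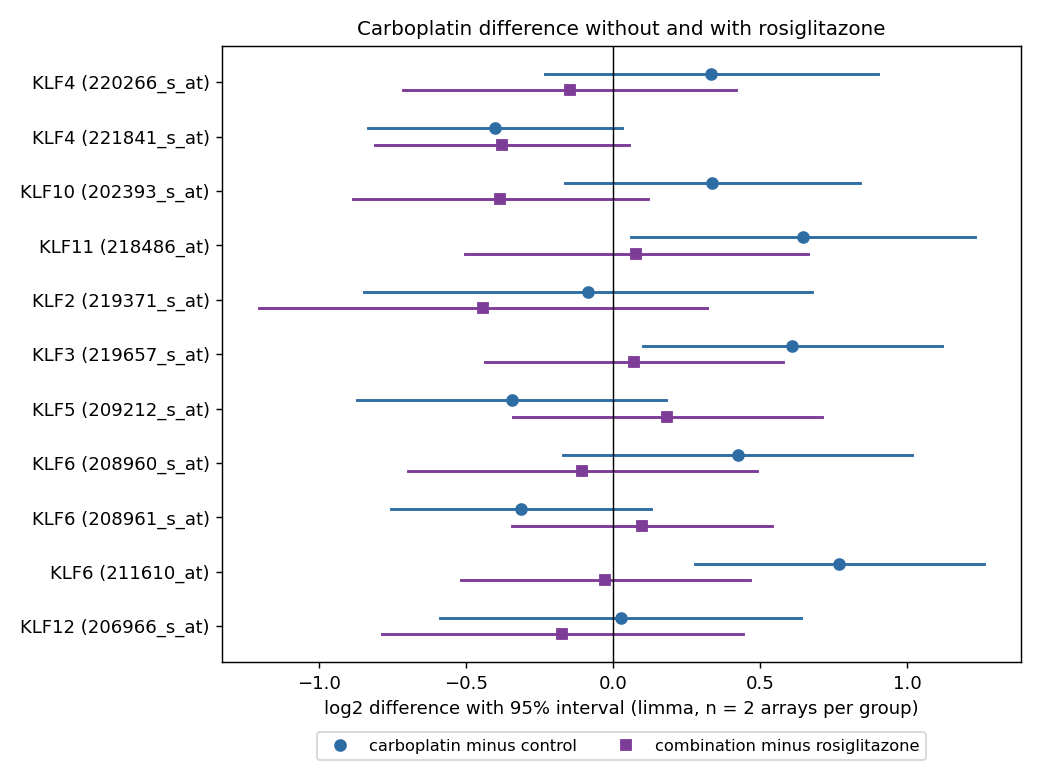
Log2 differences with 95% limma intervals for carboplatin minus control (circles) and combination minus rosiglitazone (squares), from separate arrays, for the 11 tested probe sets. KLF4 221841_s_at is at -0.40 and -0.38, and KLF6 211610_at at 0.77 and -0.03.

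Among the 5 KLF genes not on the list, KLF7, an activator best known in neurons, was the 1 above the filter. Its signal was 179 and 121 on the control arrays, 148 and 207 on the rosiglitazone arrays, 137 and 164 on the carboplatin arrays, and 148 and 201 on the combination arrays. The 4 arrays with rosiglitazone differed from the 4 without by 0.02 on the log2 scale (95% interval -0.22 to 0.27), so a change of the size measured for KLF10 or KLF4 lies outside its interval. KLF1, KLF8, KLF13 and KLF15 had signals between 1.35 and 32.4.

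The genes whose log2 values tracked KLF4 221841_s_at most closely were ranked by Pearson r over the 8 arrays among 8029 genes. The 5 highest were PTX3, a secreted pattern recognition protein (0.99), CPT1A, which admits fatty acids to mitochondrial oxidation (0.99), the lipid droplet protein PLIN2 (0.97), the carnitine transporter SLC22A5 (0.96) and ANGPTL4, a lipoprotein lipase inhibitor (0.96). The 5 lowest were the kinase gene DAPK1 (-0.98), the collagen gene COL5A1 (-0.98), POPDC3 (-0.98), the myosin gene MYO10 (-0.97) and the actin-associated PALLD (-0.96). The arrays form separate sets with and without rosiglitazone on KLF4, and each r includes that split. Among the members KLF10 came closest to KLF4 (r = 0.78, rank 218 of 8029), followed by KLF6 208961_s_at (0.60) and KLF5 (0.60), and KLF2 lay at -0.73 (rank 7724).

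**Figure D4:**
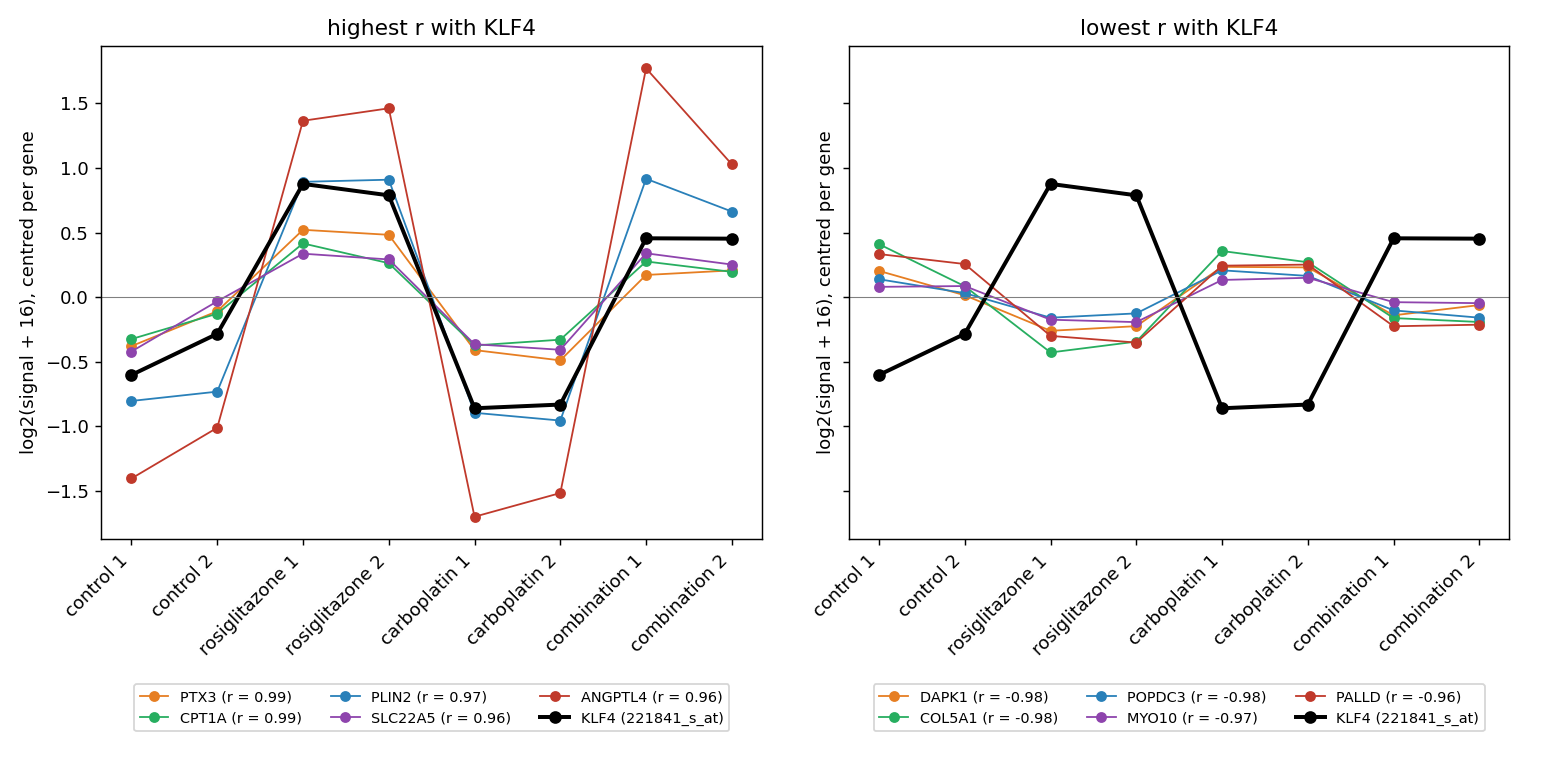
Log2(signal + 16) of each gene minus its own mean, by array, for KLF4 221841_s_at (black) with the 5 genes of highest r (left) and the 5 of lowest r (right). The left genes are above their means on the 4 arrays with rosiglitazone and the right genes below.

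Genes related to Krüppel-like factors were followed in 8 lists, of which 44 genes were tested. The lists hold family relatives, binding partners, regulators and reported targets. In the 4 against 4 rosiglitazone contrast limma called 0 of the 44, with 19 higher, 25 lower and 7 at an unadjusted p under 0.05. Over all probe sets 0.885% were called and 9.96% had an unadjusted p under 0.05. Of 10 corepressor and coactivator genes 3 were higher and 7 lower. HDAC2, a histone deacetylase of the Sin3 complex, was at 0.44 ± 0.13 and CREBBP, an acetyltransferase, at -0.29 ± 0.13. CTBP2 was at -0.23 ± 0.10 and SIN3B at 0.17 ± 0.14. Of 6 ubiquitin ligase genes 3 were higher and 3 lower, with SIAH1 at 0.30 ± 0.12, ITCH at -0.16 ± 0.11, SMURF1 at 0.15 ± 0.12 and WWP1 at -0.11 ± 0.15.

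The kinase route through MEK5 and ERK5 to MEF2, which induces KLF2 and KLF4 in endothelium, had 3 of 6 genes higher and 3 lower. Its transcription factor MEF2A was at 0.26 ± 0.15 and the ERK5 gene MAPK7 at 0.10 ± 0.14, with MAP3K3 at -0.11 ± 0.11 and MAP3K2 at -0.20 ± 0.21. Of the related Sp factors SP3 was at 0.18 ± 0.11 and SP2 at 0.00 ± 0.14. Of the listed KLF2 targets 1 was tested, the anticoagulant receptor gene THBD, at 0.18 ± 0.15.

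Of 9 genes reported as KLF4 targets 2 were higher and 7 lower with rosiglitazone, and none was called. The list mixes genes reported as activated and as repressed, so this split has no expected direction. The adhesion gene CDH1, reported as activated by KLF4, was at 0.41 ± 0.15, and BIRC5, an apoptosis inhibitor reported as repressed, at -0.28 ± 0.10. CDH1 and BIRC5 were the 2 of the 9 with an unadjusted p under 0.05 (limma), and were named for that. The targets not named were not compared with a reported direction. For CDH1 rosiglitazone differed from control by 0.14 ± 0.22, with overlapping arrays, and the combination from carboplatin by 0.67 ± 0.22. The cyclin genes CCND1 and CCNE1 were at -0.24 ± 0.12 and -0.18 ± 0.11. CDKN1A, the p21 gene that KLF4 is known to activate, was at -0.02 ± 0.13 (adjusted p = 0.981, limma), with a 95% interval of -0.31 to 0.26. With carboplatin CDKN1A rose by 1.54 ± 0.13 over 4 arrays against 4 (adjusted p = 0.00167), the 1 called gene of the 44 there, where 0.0300% of all probe sets were called. It passed under all 17 alternatives of that contrast. On the same arrays KLF4 was at -0.39 ± 0.14 in 221841_s_at and at 0.09 ± 0.18 in 220266_s_at, and neither was called. Of 9 genes reported as targets of KLF5, KLF6 or KLF10, 4 were higher and 5 lower with rosiglitazone. The TGF-β coreceptor gene ENG, a KLF6 target, was at -0.54 ± 0.22, with SMAD2 at -0.11 ± 0.10, PLAU at 0.12 ± 0.11 and TAGLN at 0.13 ± 0.16.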

How the data were processed

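The RNA was primed with oligo-dT and made into biotinylated cRNA, per the labels' protocols. The authors deposited 1 linear intensity per probe set and array. How it was computed, corrected for background and scaled is not given in the sources used here. Groups came from the sample titles. Signals were taken as log2(signal + 16) and quantile normalized (limma 3.58.1, R 4.3.3). The 68 control probe sets and those with a mean below the 40th percentile were left out, which left 13338. The 4 group means were estimated from the 8 arrays together with lmFit and eBayes with an intensity trend (4 residual and 7.1 prior degrees of freedom), and 8 contrasts were tested (two-sided), adjusting by Benjamini-Hochberg over all probe sets. The fit was tested on simulated data. A gene outside the member list was represented by its brightest probe set. All 9 member genes were found by Entrez identifier in RefSeq of GRCh38.p14 under the same symbol, and 7 have promoter windows there. Named were every member probe set, the 5 and 5 genes of most extreme r with KLF4, and from each list every called gene and up to 4 of smallest p in the 4 against 4 rosiglitazone contrast. The members and lists were chosen with earlier results of these data known. Alternatives were the deposited scaling, median scaling, a pseudocount of 1 or of 64, omitting the filter or raising it to the 60th percentile, omitting the trend, fitting the compared groups alone, blocking on replicate number, a brightness covariate, and leaving out each array.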

Additional observations from a re-analysis of the deposited data

Results flagged for a closer look

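KLF2 on combination 1 had a log2 value of 4.51, while the other 3 arrays with rosiglitazone lay at 5.51 to 5.65. Its gap to the nearest array was 0.872 of the range of the 4, above Dixon's 95% critical value. It was the 1 such value among 44 sets of 4 arrays examined, and chance marks about 1 in 20 sets. The 4 arrays come from 2 treatment groups.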

How the results depend on the processing

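Apart from KLF4, the count of Krüppel-like factor probe sets called for the 4 arrays with rosiglitazone against 4 without was 1 (KLF10). The deposited scaling gave 2. Median scaling gave 0, omitting the filter 0, omitting the trend 0 and the brightness covariate 0. The count was 0 to 1 when 1 array was left out. Without combination 2 the 1 called was KLF2, not KLF10. For rosiglitazone against control the count of 0 became 1 with the filter at the 60th percentile, 1 with only the groups compared, and 0 to 1 when 1 array was left out. In the other 6 contrasts it stayed at 0 under each alternative run. With the deposited scaling the median difference of all probe sets was 0.17 in the 4 against 4 rosiglitazone contrast and 0.22 for rosiglitazone against control, against -0.01 for both as reported. Over all probe sets the 4 against 4 rosiglitazone count of 118 ran from 36 without the trend to 142 with the stricter filter, and its split of 89 higher and 29 lower was 62 and 2 with the deposited scaling and 62 and 19 with median scaling. The count of 48 for rosiglitazone against control ran from 3 without rosiglitazone 2 to 70 with the stricter filter. The filter at the 60th percentile left out both KLF4 probe sets. Under every other alternative run both kept their sign in each rosiglitazone contrast, the brighter running from 0.81 to 1.59 over 4 against 4. As KLF4 was chosen for this rise on the same arrays, its stable sign is a description and no independent support. Of 88 member values (11 probe sets in 8 contrasts), 30 changed sign under at least 1 of the 18 alternatives, none of them called and none above 0.444 in size. Same-numbered arrays had correlated deviations of -0.11 to 0.25 between groups, the highest for carboplatin with the combination. A shared batch of those groups was not tested, and the numbers were not taken as pairs. With the replicate number as a block the counts were 115 in place of 118 and 43 in place of 48, and KLF10 kept its call (adjusted p = 0.0398). Low signal limits KLF9, 3 KLF12 probe sets and the dim KLF5 probe set, whose values lie near the pseudocount. KLF4 shares this limit on the arrays without rosiglitazone, with signals of 26.2 to 42.5 in 221841_s_at and 21.0 to 43.1 in 220266_s_at. The size of its differences therefore depends on the pseudocount. KLF6 211610_at was likewise low in control, at 28.4 and 21.0. KLF2 on combination 1 and KLF11 on control 2 also had signals below the pseudocount.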
